A study of Canis lupus familiaris with 33 samples.

Results

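This report describes the regions of the dog autosomes that carried a methylation peak in both brain tissues, cerebellum and cerebrum, and in none of the 9 other tissues of the series. Peaks of the 11 tissue lists were merged into union regions wherever they overlapped by at least 1 base, and regions were chosen by their peak calls: a region was taken when its peaks came from both brain lists alone. This rule found 4385 regions among 450791 autosomal union regions (0.973%; 95% Wilson interval 0.944% to 1.00%, counting error only), called brain-only regions below. They covered 1457 kb in all. The choice rests on the peak calls themselves, so presence in the brain lists and absence from the others are given as a description and carry no test.

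The study mapped methylated DNA of healthy adult beagles with MBD-seq. In this assay fragmented DNA is captured on beads carrying a methyl-CpG-binding domain and sequenced, and uncaptured input DNA serves as the control. Each tissue (both brain tissues, stomach, colon, liver, pancreas, lung, spleen, kidney, ovary and mammary gland) had 2 MBD libraries and 1 input library, 33 libraries in all, and 1 deposited peak list. Both brain lists came from MBD libraries of a female that served in every tissue and of a male titled jj8, with an input of jj8. Liver, lung and spleen had the same animals and the same input animal, and kidney and pancreas the same MBD animals with an input of the shared female. Colon and stomach paired the shared female with a female titled jj82 and an input of jj8, and mammary gland and ovary paired it with another female and used its own input. The jj8 inputs were labelled female although the jj8 MBD libraries were labelled male, and the titles name 4 animals where the protocol speaks of 3 dogs. With 1 list per tissue there is no replicate within a tissue, and the read depth behind a list is unknown.

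Methyl groups on cytosines of CpG sites are placed by DNA methyltransferases and are read by proteins with a methyl-CpG-binding domain. Tissues of an animal share most of their methylated sequence and differ at a minority of sites, many of them enhancers and other regulatory elements away from promoters. The cerebellum consists largely of granule neurons, while the cerebrum holds excitatory and inhibitory neurons with many astrocytes and oligodendrocytes. Capture favours fragments with dense CpG methylation, the more so in the high-salt eluates that were sequenced here, and it binds hydroxymethylated cytosine, which is common in brain, only weakly. A peak averages all cells of the tissue, so a larger share of methylated cells and denser methylation per cell cannot be told apart. The lists carry no gene names and no genome of their build, CanFam3.1, was used here, so the genes and sequences at these positions were not analysed and the tissue labels were not checked against marker genes.

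The brain lists differed in length and in shortest peak. Cerebellum had 340948 autosomal peaks and 35015 regions of its own, against 296594 peaks and 3816 regions of its own in cerebrum, while the other lists had 251352 to 353642 peaks and 418 to 26412 regions of their own. The shortest peak had 188 bases in cerebellum and 210 bases in cerebrum. The median fold enrichment of a list, to which folds are set below, was 6.79 in cerebellum and 6.27 in cerebrum.

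Brain-only regions were the second most frequent kind of region with peaks in exactly 2 lists. They made up 9.65% of the 45461 such regions, behind 14565 regions of cerebellum and ovary and ahead of 3718 of kidney and ovary. Long lists give many pairs, so the number expected from the total of each list among regions of 2 lists was fitted. It was 3059 for the brain pair, a ratio of observed to expected of 1.43. That ratio ranked 20 among the 55 pairs, whose median was 0.918 and whose highest value, in colon and stomach, was 9.74. With equal list sizes the ratio was 1.62 and ranked 10. A ratio cannot exceed the smaller total of its 2 lists divided by the expected number. Cerebrum had 9499 regions of 2 lists, which bounds the brain pair. Colon had 1549, with 25.3 expected for colon and stomach. Ranks thus set pairs with unlike upper limits side by side. Among the 10 pairs of the 5 tissues with the same animals and input, the brain pair had the highest count and ranked 4 by ratio, behind liver and lung (4.21), liver and spleen (2.72) and lung and spleen (1.89). Within this set the ratio was under 1 for each pair of a brain list with liver, lung or spleen, from 0.390 in cerebellum and lung to 0.918 in cerebrum and lung. The fit keeps the total of each list, so ratios above 1 in some pairs of a list go with ratios under 1 in others. The count depended on ovary, the longest list: without it 10563 regions had peaks in both brain lists and no other, while leaving out any of the other 8 lists gave 4445 to 5743.

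**Figure D1:**
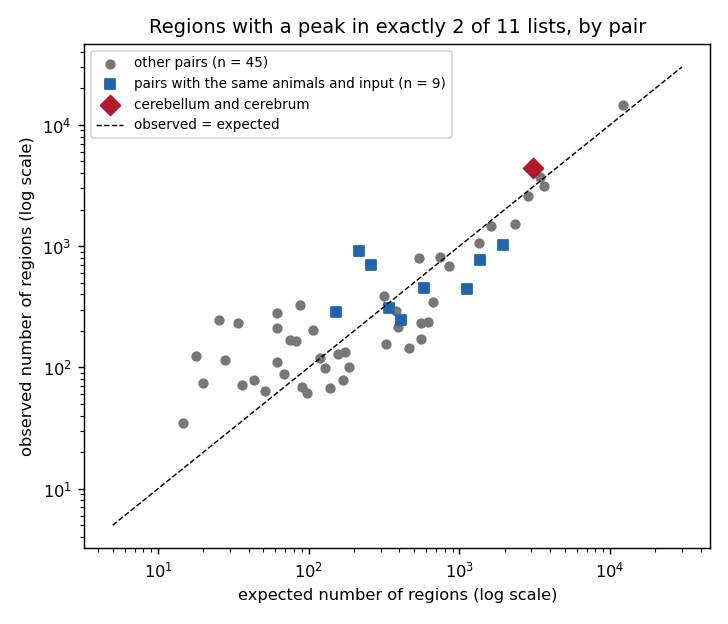
Observed against expected number of regions with a peak in exactly 2 of the 11 lists, both on log scales, with 1 point per pair of tissues. The brain pair (red diamond) lies at 4385 observed and 3059 expected, just above the dashed line of equality, and blue squares mark the 9 other pairs with the same animals and input.

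The overlap of both brain lists outside the other tissues made up different shares of each list. Of the 8201 cerebrum regions without a peak in the 9 non-brain lists, 53.5% had a cerebellum peak (95% Wilson interval 52.4% to 54.5%). Of the 39400 such cerebellum regions, 11.1% had a cerebrum peak (10.8% to 11.4%). Both shares have the same 4385 regions as numerator, so their difference is that of the regions of each list alone. Both were below the shares among all autosomal regions, of which 69.0% had a cerebellum peak and 62.0% a cerebrum peak. Those hold many regions left out here, as 47.3% of all regions had both brain lists and 2 or more others. The 2 sets are thus not like for like. The share was higher for stronger peaks, apart from the weakest class of under 0.4 times the list median (50.5% of 186 cerebrum and 7.89% of 925 cerebellum regions). It was 46.3% (43.5% to 49.2%) for cerebrum peaks at 0.4 to 0.5 times the list median and 66.5% (63.1% to 69.7%) for those at 0.8 times or more. For cerebellum peaks the share with a cerebrum peak went from 6.72% (6.32% to 7.15%) at 0.4 to 0.6 times the list median to 37.3% (33.8% to 41.0%) at 1.2 times or more.

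Most brain-only regions were weakly enriched. The median fold was 5.05 in cerebellum, or 0.744 times the list median (quartiles 0.611 and 0.911), and 3.89 in cerebrum, or 0.620 times the list median (quartiles 0.542 and 0.714). Only 16.7% of the regions lay above the list median in cerebellum and 1.66% in cerebrum. Both values were below the list median in 3621 regions (82.6%) and above it in 41 (0.935%). The median −log10 p-value was 12.6 in cerebellum and 8.89 in cerebrum. The lowest −log10 p-value was 2.43 in cerebellum and 2.03 in cerebrum. The fold relative to the list was higher in cerebellum than in cerebrum in 3138 regions (71.6%), with a median log2 ratio of 0.26 (quartiles −0.04 and 0.57). Across the 4385 regions the relative folds of both tissues were only weakly related (Spearman's rho 0.245), against 0.539 across the 121528 regions of all 11 lists. Brain-only regions spanned a narrower range, with cerebellum quartiles of 0.611 and 0.911 against 1.09 and 2.11 for regions of all 11 lists. A narrow range tends to lower rho, so the contrast is not like for like, and the part of range was not tested. Both rho values describe regions of the same 2 lists and have no independent points.

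**Figure D2:**
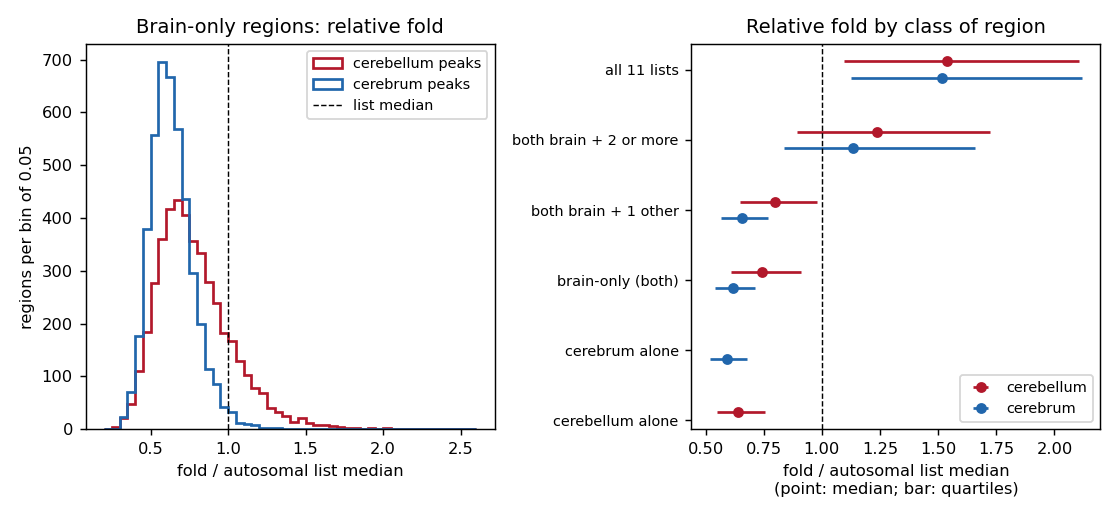
Left, distribution of fold divided by the autosomal list median in the 4385 brain-only regions, for cerebellum and cerebrum peaks, with the list median dashed at 1. Right, median and quartiles of the same quantity by class of region, where brain-only regions (0.744 and 0.620) lie just above regions of a single brain list and far below regions of all 11 lists (1.54 and 1.52).

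Whether a list lacks a peak depends on its limit. When each list was cut to its stronger 50% by fold, 3147 regions had peaks in both brain lists alone. Among those were 41 brain-only regions, the same 41 that lay above both list medians, since both peaks must pass the cut. They made up 1.30% of the regions found with the stricter lists. With equal list sizes 3192 regions were found and 1233 of the brain-only regions (28.1%) remained.

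Regions just outside the rule, with both brain lists and 1 other list, numbered 9040, of which 6081 (67.3%) had ovary as the other list and 1341 (14.8%) kidney, down to 59 with colon. Their relative fold was 0.797 in cerebellum, 0.657 in cerebrum and 0.715 in the other list (medians). For those with ovary the medians were 0.789 in cerebellum, 0.645 in cerebrum and 0.764 in ovary. Of the 226431 regions with both brain lists, the brain-only regions were 1.94%.

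Brain-only regions were short, as were other regions of few lists, and nearly all had a single peak in each brain list. Their median width was 292 bases (quartiles 263 and 350; range 210 to 1710) against 347 bases for all regions, 798 for regions of all 11 lists, and 234 and 255 for regions of cerebellum or cerebrum alone. The median was 287 bases for regions of cerebellum and ovary alone and 317 for both brain lists with 1 other. A region of 2 lists joins peaks of both, so it tends to be wider than a region of a single list. In 2407 brain-only regions (54.9%) the width was under 300 bases, and 15 regions reached 1000 bases. In 4371 regions (99.7%) each brain list had a single peak. The peaks of both tissues covered the same stretch: the part covered by both was 81.9% of the region at the median (quartiles 73.0% and 88.9%) and at least 50% in 4157 regions (94.8%). Peaks in these regions had median widths of 261 bases in cerebellum and 265 in cerebrum. In regions this narrow there is little room for a second peak or for peaks lying apart. The summits of both tissues lay 22 bases apart at the median, and at most 50 bases apart in 81.4% of the regions. Width was almost unrelated to relative fold across regions, with a Spearman's rho of 0.0914 in cerebellum and −0.00545 in cerebrum.

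The 10 strongest brain-only regions were ranked by the lower of their 2 relative folds. None of them had a peak in the 9 other lists, and coordinates are those of the deposited lists in CanFam3.1. The strongest, chr13:37474868-37476456, was also the second widest at 1589 bases, with a fold of 11.2 in cerebellum (1.66 times the list median) and 8.98 in cerebrum (1.43 times). The next, chr18:45499756-45500136, had folds of 8.98 and 8.31, which are 1.32 and 1.33 times the list medians. At chr2:33010577-33011015 the folds were 8.69 in cerebellum and 7.90 in cerebrum. At the chr18 and chr2 regions the relative folds of both tissues were nearly equal. At chr7:40397669-40398016 the folds were 9.45 in cerebellum and 7.46 in cerebrum. The region chr27:17489426-17489730 had 10.6 and 7.28, and its summits lay 4 bases apart. The region chr22:14204648-14204992 had 7.82 and 7.38 and stood in a sparse stretch, with 3 other union regions within 50 kb. The cerebellum peak was the stronger by far in the next pair of regions. At chr26:19708506-19708845 the folds were 12.1 in cerebellum and 7.22 in cerebrum. At chr28:32964656-32965090 they were 12.4 and 7.18, or 1.83 and 1.14 times the list medians. The last were chr27:8652644-8652928, with 8.78 and 7.17, and chr30:23367492-23367812, with 7.76 and 7.43. Their widths other than the first ran from 285 to 439 bases. By rank in their list these 10 regions exceeded 59.2% to 85.2% of the cerebellum peaks and 59.8% to 73.7% of the cerebrum peaks.

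The 3 widest regions were not all strong. The widest, chr7:38936760-38938469, had a fold of 9.46 in cerebellum and 4.14 in cerebrum, and both lists covered only 25.0% of it, with summits 755 bases apart. The region chr3:60005940-60007513 had 2 cerebellum peaks and 1 cerebrum peak, with folds of 6.99 and 4.54. The highest cerebellum fold, named here after its value was seen, was 17.3 at chr2:79911949-79912381, 2.55 times the list median and above 95.2% of that list, while the cerebrum fold there was 4.28, 0.683 times the list median. The lowest value was a cerebrum fold of 1.72 at chr16:2433618-2434082, where the cerebellum fold was 6.93.

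Every autosome held brain-only regions, and their number followed the number of union regions (Spearman's rho 0.931 across 38 autosomes). Their share per autosome ran from 0.699% on chromosome 20 (94 of 13453 regions; 95% Wilson interval 0.571% to 0.854%) to 1.55% on chromosome 38 (82 of 5280; 1.25% to 1.92%), with a median of 0.973%. The interval lay above the overall share on 6 autosomes, counting error alone considered, and below it on 4. Chromosome 29 had the second highest share, 1.33% (1.08% to 1.65%), and chromosome 9 the second lowest, 0.739% (0.622% to 0.877%). Shorter autosomes tended to have a higher share, with a Spearman's rho of −0.339 between share and the position of the last region, and a Pearson's r of −0.381, or −0.294 without chromosome 38. The share also moved with how many regions of the autosome had a cerebellum peak at all (Spearman's rho 0.482), which was 60.6% on chromosome 9, 63.9% on chromosome 20 and 72.4% on chromosome 38. The share moved as well with that of regions of cerebellum and ovary alone (Spearman's rho 0.542). Those were 1.76% on chromosome 9, 2.13% on chromosome 20 and 3.67% on chromosome 38. The part of either in the differences between autosomes was not tested. Autosomes share lists and differ in base composition, so these values describe them and have no p.

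**Figure D3:**
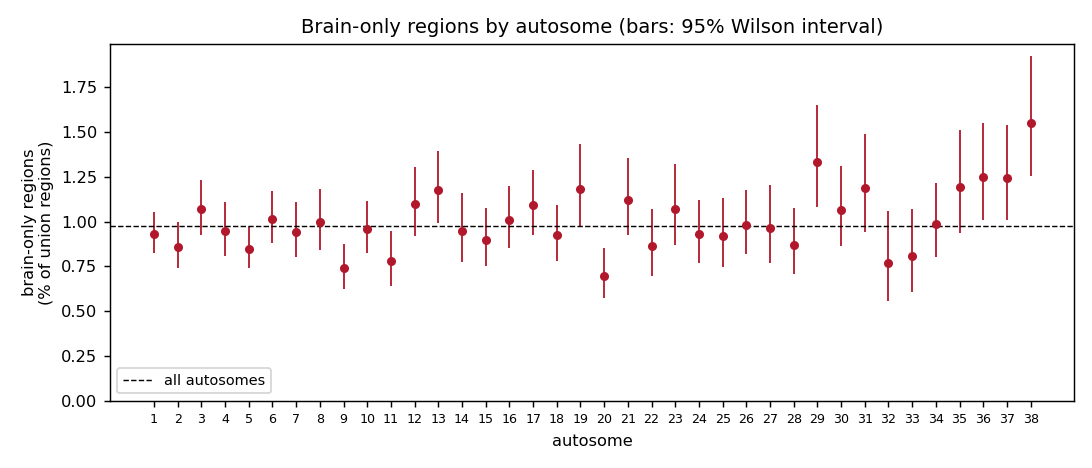
Brain-only regions as percent of the union regions of each autosome, with 95% Wilson intervals, and the share over all autosomes (0.973%) as a dashed line. Chromosome 38 is highest at 1.55% and chromosome 20 lowest at 0.699%.

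Each autosome was also divided into 10 equal parts along its length. The share of brain-only regions was 0.935% in part 1, highest in part 9 at 1.09% and lowest in part 10 at 0.870%. Part 10 held 13.2% of brain-only regions and 14.7% of all regions.

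Brain-only regions lay closer to each other than their share of all regions would give. The next union region along the chromosome was also brain-only for 107 of 4385 regions, 2.44%, against 0.973% of all regions, a ratio of 2.51. The ratio was 1.76 at 2 regions' distance, 1.57 at 10, 1.08 at 50 and 1.01 at 100. Regions of cerebellum and ovary alone, 3.23% of all regions, had a lower ratio at the first step, 1.85, but it declined more slowly and was 1.35 at 100. Regions of cerebellum alone had 1.78 and 1.18. The highest ratio at the first step, 8.47, was that of the 1305 regions (0.289%) with a peak in all 9 other lists and in neither brain list, of which 32 were followed by another. The ratio of brain-only regions was 2.13 with equal list sizes, where 1.79% of the next regions were brain-only, and 1.79 without ovary, where 4.42% were. It was 4.52 for the brain-only regions with no region of another list within 1000 bases. Of the next regions 2.49% were then of that kind, against 0.551% of all regions. That choice acts on the very neighbours counted and lowers the share among all regions, so this ratio does not show closer grouping. Most brain-only regions were still solitary: the nearest other was 112 kb away at the median (quartiles 35.7 and 293 kb). It lay within 10 kb for 443 regions (10.1%), against 5.25% of all other regions that had a brain-only region so near. These 443 regions formed 194 pairs and 18 larger groups of at most 4 regions. The closest pair, on chromosome 9 (chr9:6461812-6462142 and chr9:6462264-6462579), was 121 bases apart.

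**Figure D4:**
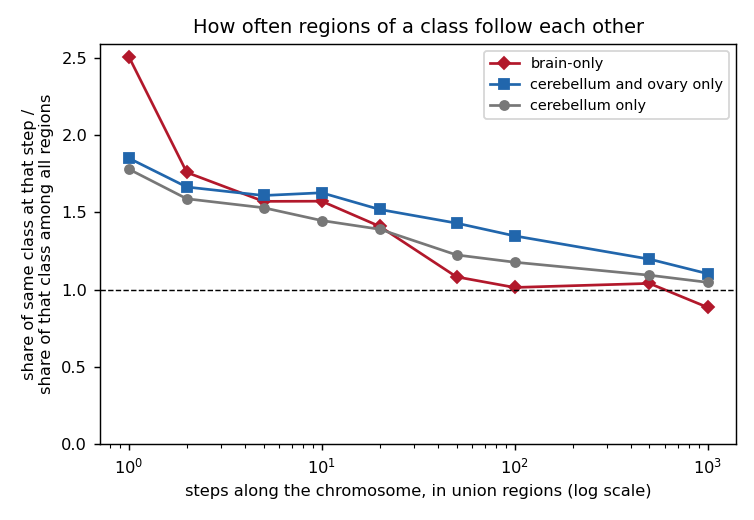
Share of regions of a class at a given number of steps from a region of the same class, divided by the share of that class among all regions, with steps on a log scale. Brain-only regions start at 2.51 and come down to 1.01 at 100 steps, while regions of cerebellum and ovary alone start at 1.85 and are still at 1.35 there.

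Of 22027 windows of 100 kb with any region, 3653 held a brain-only region, 3052 of them a single region, and 3 windows held 5. In the window chr6:19500001-19600000 the 5 brain-only regions were 15.6% of its 32 regions, and only 3 of its regions had peaks in all lists. Their folds ran from 0.407 to 1.05 times the list median in cerebellum and from 0.478 to 0.804 times in cerebrum. This window had 8 further regions with cerebellum peaks alone and no region with cerebrum peaks alone. In chr5:18200001-18300000 the 5 regions spanned 53.8 kb among 51 regions, of which 21 were present in all lists. The strongest of them, chr5:18242294-18242608, had folds of 7.54 in cerebellum and 4.28 in cerebrum. In chr27:3500001-3600000 the 5 regions spanned 53.2 kb among 54 regions, and 3 of them, at chr27:3583702-3583968, chr27:3586569-3586899 and chr27:3588166-3588438, lay within 5 kb of each other. Their cerebellum folds were 3.93, 5.79 and 2.81, and their cerebrum folds 3.83, 4.56 and 4.11. None of the 3 windows had a region with peaks in all 9 other lists and no brain peak. Over windows of 1 Mb, chosen after the counts were seen, the stretch from 19 to 20 Mb of chromosome 6 had the most brain-only regions, 16 of 295 (5.42%). It was followed by chromosome 16 from 2 to 3 Mb, with 12 of 324. The chromosome 6 stretch had 167 regions with a peak in 1 to 8 of the 9 non-brain lists. Of these 60.5% had a cerebellum peak and 61.7% a cerebrum peak, against 55.1% and 50.6% over the autosomes. Liver (61.7% against 46.1%) and lung (52.7% against 37.4%) were further above.

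The surroundings of brain-only regions were sparser than those of regions in all lists. A brain-only region had 25 other union regions within 50 kb at the median and 5 that were present in all lists, against 28 and 6 for all regions and 35 and 12 for regions of all lists. The nearest region of all lists lay 5.71 kb away at the median, against 4.30 kb over all regions. Regions of cerebellum alone had 22 regions and 4 of all lists within 50 kb, and 7.25 kb to the nearest of all lists. For cerebellum and ovary alone these were 21, 4 and 7.36 kb, for both brain lists with 1 other 24, 5 and 5.73 kb, and for cerebrum alone 26, 5 and 5.34 kb. Brain-only regions thus lay among the other classes of few lists in this respect. A region with a peak of any non-brain list lay within 1 kb of 43.3% of the brain-only regions, against 53.0% of all regions. In 2486 brain-only regions (56.7%) no such region was within 1 kb. In 272 (6.20%) none was within 10 kb, and these isolated regions had much the same strength as the rest, with median relative folds of 0.765 in cerebellum and 0.628 in cerebrum. The most isolated, chr31:21718350-21718626, was 41142 bases from the nearest region of another tissue and had folds of 4.71 and 4.98. The opposite class, regions with a peak in all 9 other lists and in neither brain list, was seldom near. Such a region lay within 10 kb of 0.502% of the brain-only regions and of 1.81% of all regions. The value was much the same for cerebellum alone (0.505%), cerebellum and ovary alone (0.460%) and both brain lists with 1 other (0.520%), so it is not particular to brain-only regions, and higher for cerebrum alone (1.18%).

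Partly shared regions near brain-only regions more often held brain peaks. Places near brain-only regions are picked by brain peaks, while the regions counted were chosen without the brain lists. The regions counted had a peak in 1 to 8 of the 9 non-brain lists. Within 10 kb of a brain-only region (13340 regions) 70.0% of them had a cerebellum peak and 59.3% a cerebrum peak, against 55.1% and 50.6% of all 270162 such autosomal regions. The shares without a peak in either brain tissue were 20.4% and 31.5%. With distance the shares fell, to 63.2% for cerebellum and 55.2% for cerebrum at 10 to 50 kb and to 52.7% and 49.2% beyond 50 kb. To set all lists side by side, the regions were chosen anew for each tissue without its own list and without the brain lists, and regions of cerebellum and ovary alone were left out, since they serve as a second starting class. Each region left out has a cerebellum peak and no cerebrum peak, so this choice does look at the brain lists, and the cerebrum difference of 8.71 points given by the shares above becomes larger through it. The difference near brain-only regions was then 15.2 percentage points in cerebellum and 10.2 in cerebrum. It lay between −2.28 points (stomach) and 2.90 points (kidney) in the 9 other tissues, below both brain tissues. The nearby places were found through peaks of the brain lists, so the lists are not interchangeable here and no test is given. Near regions of cerebellum and ovary alone, by the same measure, the difference was 13.0 points in cerebellum, 5.92 in ovary and 4.89 in cerebrum. There too the lists that define the class were the highest.

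Regions present in all 11 lists had higher folds in brain, relative to the other tissues, when a brain-only region was near. In each shared region the log2 fold of every list was centred on the mean over the 11 lists. The median over the 6920 shared regions within 10 kb of a brain-only region was compared with the median over all 121528 shared regions. The difference was 0.110 (log2) in cerebellum and 0.0607 in cerebrum. In the other tissues it was 0.0296 in ovary, 0.00705 in liver, −0.0128 in kidney, −0.0161 in pancreas, −0.0228 in colon, −0.0298 in lung, −0.0352 in stomach, −0.0402 in spleen and −0.0512 in mammary gland. The brain tissues were the highest, and no other tissue reached them. Their mean of 0.0851 was 0.104 above that of the other tissues, −0.0190 ± 0.0249 (SD, n = 9). In size this is a shift of a few percent in fold. The nearby regions were found through peaks of the brain lists themselves, so the lists are not interchangeable here and the difference is given with no test. Among the 5 tissues with the same animals and input it was 0.101.

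**Figure D5:**
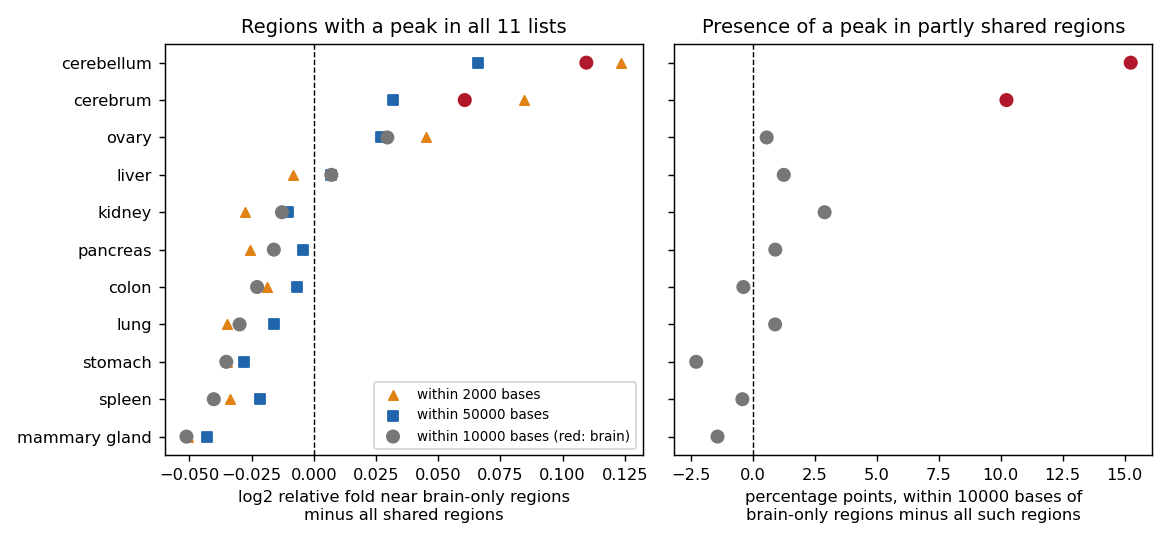
Left, for each tissue, the median log2 relative fold of shared regions near brain-only regions minus that of all shared regions, at 3 distances. Right, the percent of partly shared regions with a peak of the tissue within 10 kb of brain-only regions minus that over all such regions. Cerebellum and cerebrum are highest in both panels, at 0.110 and 0.0607 on the left and 15.2 and 10.2 percentage points on the right. The places near brain-only regions were picked by brain peaks.

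The difference was smaller at longer distances. In shared regions up to 2 kb from a brain-only region the difference was 0.123 (log2) in cerebellum and 0.0844 in cerebrum. At 10 to 50 kb it was 0.0504 and 0.0226, where the highest other tissue had 0.0264. At 50 to 100 kb it was 0.00811 and 0.000494, at 100 to 500 kb it was −0.0286 and −0.0123, and beyond 500 kb it was −0.0204 and −0.00777. The reference is the median over all shared regions, near ones included, so that values above 0 near brain-only regions go with values below 0 farther away. The strength of the brain-only region made little difference. Around the stronger 50% the values were 0.110 in cerebellum and 0.0652 in cerebrum, and around the weaker 50% they were 0.110 and 0.0568. Shared regions near brain-only regions were about as strong as others, with a median fold over the lists of 9.94 against 10.02. The lists that define a class were also the highest near regions of cerebellum and ovary alone, where the difference was 0.122 in cerebellum, 0.0884 in ovary and 0.0110 in cerebrum. The difference in cerebrum was thus 0.0607 near brain-only regions and 0.0110 near regions of cerebellum and ovary alone, a contrast that was not tested.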

How the data were processed

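Each tissue had 1 peak list in narrow-peak format without a header. Per the submitters' processing notes the build was CanFam3.1. The aligner, the peak caller, its control, the filters and the way in which the 2 libraries were combined are not given in the sources used here. The fold enrichment (a ratio) and the −log10 p-value of each peak were used as deposited by the authors, read by their place in the format, and the summit offset likewise. From these, autosomal peaks were merged, each list was called present where 1 of its peaks lay in the region, and the highest fold per list was divided by the median of that list. Expected pair counts were fitted to the totals of each list. The regions, the lists and the tests were chosen with earlier results of these data known, and named regions were the 10 strongest, the 3 widest and the 3 densest windows. Genes, planned as a further comparison, were not analysed here. A permutation over lists had been planned for the folds near these regions; it is not reported, because the brain lists themselves picked those places. The functions were tested on simulated lists. Intervals are 95% Wilson intervals. Python 3.11.15, numpy 2.4.6, pandas 2.3.3 and scipy 1.17.1 were used.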

Additional observations from a re-analysis of the deposited data

Results flagged for a closer look

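Among regions with both brain lists and 1 other list, ovary stood far from the 8 other tissues: it was the other list in 6081 regions, and the next, kidney, in 1341. It was 1 of 3 groups of 9 tissues examined for a far value. Chance flags about 1 in 20 groups of like values, a rate that does not apply here, since the lists are not alike. Ovary had 26412 regions of its own and the next of the 9 lists, liver, 4500. Kidney had 4079 of its own, fewer than liver, but liver was the other list in only 489 regions. The part of list length in the ovary count was not tested.

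Chromosome X was outside the rule. It held 354 regions with a peak in both brain lists and no other, 1.66% of its 21367 regions (95% Wilson interval 1.49% to 1.84%), against 0.973% on the autosomes. The limit that a count of 0 allows there is 0.0140%. The interval overlaps that of chromosome 38, the highest autosome (1.55%; 1.25% to 1.92%). The lists differ in the sex of their animals, with a female and a male for both brain tissues and females alone for ovary, mammary gland, colon and stomach, and the part of sex in the share on X was not tested.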

How the results depend on the processing

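The number of brain-only regions stayed within 1.5 times of 4385 under the alternatives tried except when no region of the other lists was allowed within 1000 bases (2486) and without ovary. With lists left out in turn it was 4445 to 10563, and the 8 values other than that without ovary were at most 5743. The ratio to the expected number was 1.365 with each list cut to its stronger 50% by fold, 1.62 with equal list sizes, and 1.33 to 1.49 with lists left out. The percent of next regions that were brain-only was 1.79 with equal list sizes and 2.44 to 4.42 with lists left out. Relative to the mean fold of a list, the medians were 0.629 in cerebellum and 0.514 in cerebrum. The difference in cerebellum presence near brain-only regions was 13.4 points with lists cut to the stronger 50%, and these checks of presence were chosen after the data were seen. The log2 difference of 0.104 in shared regions kept its sign under the alternatives tried. It was 0.0964 to 0.113 with 1 non-brain tissue left out. With 1 brain tissue remaining it was 0.0797 without cerebellum and 0.135 without cerebrum. In the 5 tissues of the same animals it was 0.101. Within classes of strength and of density, both chosen after the data were seen, it was 0.0915 and 0.130. The cause of these changes was not tested. No paired analysis was possible because each tissue has a single list. Read depth is unknown and limits what absence from a list means. Comparisons of genes and of CpG content were not run, since no annotation or genome of the build was used.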
